A study of Rattus norvegicus with 6 samples.

Results

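The genes described here are those of the rat major histocompatibility complex (MHC, named RT1 in the rat) and of the interferon pathway. They were taken by name from the expression tables: names that begin with RT1-, Ifi, Oas or Isg, names of Irf followed by a digit, and some single names, among them *B2m*, *Tap1*, *Tap2*, *Stat2*, *Mx1* and *Mx2*. The rule found 95 of 17337 gene names, and no expression value entered it. The name rule also takes in *Irf2bp1* and *Irf2bpl*, which encode IRF2-binding proteins, and *Isg20l2*, a relative of *Isg20*.

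Cortical neural progenitors of Sprague Dawley rats at embryonic day 14 were studied, grown from dissected cortices in Knockout DMEM/F-12 medium with StemPro supplement, bFGF and EGF and harvested after a second passage. The cells were untreated, no transgene or deletion is named, and 1 condition was sequenced, so no treated group stands against a control. PolyA mRNA was sequenced from 2 independent biological replicates, A and B, as 2 technical libraries each, called A1, A2, B1 and B2. Embryos of both sexes were used, per the study's methods, and how many embryos or litters went into a replicate is not given in the sources used here.

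MHC class I molecules are made of a polymorphic heavy chain and the invariant light chain beta-2-microglobulin, and they show peptides from inside the cell to T cells and natural killer cells. The peptides are cut by the proteasome and carried into the endoplasmic reticulum by the transporter Tap1/Tap2. Class II molecules present peptides from outside the cell and are largely restricted to professional antigen-presenting cells. Interferons bind receptors that signal through JAK kinases to STAT factors and Irf9, and these factors switch on interferon-stimulated genes such as the Ifit, Ifitm, Mx, Oas and Isg genes. Neurons and their progenitors are known for low class I levels.

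Levels are given as FPKM, fragments scaled to transcript length and library depth. Where 4 values follow a gene they stand in the order A1, A2, B1 and B2, and a mean ± SD is over replicates A and B after the technical libraries were averaged (n = 2). A gene is called expressed at a mean of at least 1 FPKM. It is called different between the replicates when it is expressed, the replicate means differ by at least 1 on the log2(FPKM + 1) scale, and no library of A overlaps one of B. That scale understates the change of low genes. No p-value is given, because A and B are replicates of the same condition.

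Of the 95 members, 40 (42.1%) were expressed, against a background of 60.5% of all gene names. A further 50 members lay above 0 and below 1 FPKM. The other 5, *Oas2*, *RT1-CE11*, *RT1-CE13*, *RT1-M2* and *RT1-Ha*, were listed at 0 in every library, a share of 5.26% against 13.3% of all names. The median level of the expressed members was 7.78 FPKM, below the 16.6 FPKM of all expressed genes. The mean exceeded 100 FPKM for 5 members, *Ifitm2*, *B2m*, *Ifi27*, *Ifitm3* and *Irf3*. On chromosome 20 and its unplaced scaffold, where the RT1 complex lies, 15 of 51 members were expressed, against 25 of 44 members elsewhere.

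**Figure D1:**
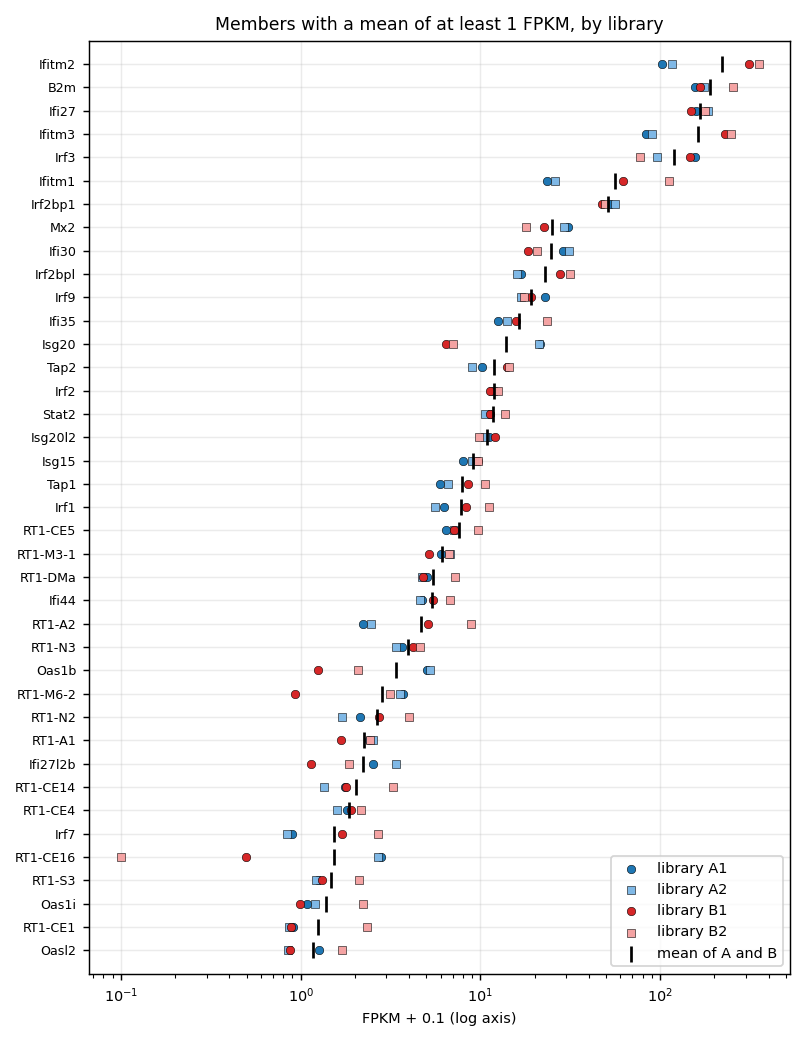
Level of 39 of the 40 expressed members in the 4 libraries, as FPKM + 0.1 on a log axis, ordered by the mean of replicates A and B (black bar). The libraries of A (blue) and B (red) are apart for the Ifitm genes, *Isg20*, *Oas1b* and *RT1-CE16*, and overlap for *B2m* and *Ifi27*.

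Library B2 read higher than B1 for most members, at a lower depth. The coverage that corresponds to 1 FPKM was 24.3, 22.7, 24.4 and 6.83 in A1, A2, B1 and B2, so the depth of B2 was 28.1% of that of B1. In B2 35 of the 40 expressed members (87.5%) exceeded their value in B1, against 49.1% of all expressed genes, and the median ratio of B2 to B1 was 1.25 for members and 0.994 for all. For 14 of the 40 members (35%) B2 was at least 1.5 times B1, against 11.4% of all. In replicate A, 18 of 40 members (45%) were higher in A2 than in A1, against 57.9%. Values of the named members in replicate B are therefore mostly given by library. Without B2 the difference of B minus A had the opposite sign in 6 of the 40 members, *Irf3*, *Irf2*, *RT1-DMa*, *Oas1i*, *RT1-CE1* and *Oasl2*, none of which was called.

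Markers of other cells also differed between the cultures. Of 14 markers of meningeal and mesenchymal cells, all expressed, 13 were called higher in B, against 4.78% of all expressed genes. Without B2 11 were called higher in B, against 3.67%, as *Ptgds* and *Aldh1a2* lost their call. The summed FPKM of the 14 markers was 861, 857, 3010 and 4331. Libraries B1 and B2, labelled as technical repeats of 1 culture, were far apart for *Ptgds* (8.18 and 292 FPKM), *Aldh1a2* (71.2 and 369 FPKM) and *Foxc1* (29.4 and 115 FPKM). The range of the sum was 857 to 861 in A and 3010 to 4331 in B, and 12 of the 14 were higher in B2 than in B1. All 12 neural progenitor markers were expressed, as the label asks, with *Sox2* at 478 ± 137 FPKM. Among the 12, *Hes5*, a Notch target, and *Fabp7*, a radial glial fatty-acid-binding protein, were called higher in A, against 1.42% of all expressed genes. Of 16 microglia and macrophage markers, 2 were expressed (*Cd68* and *Fcer1g*), the summed level was 7.29 to 8.03 FPKM in A and 8.55 to 9.63 FPKM in B, and *Cx3cr1*, *Ptprc* and *Itgam* were at or near 0. Nevertheless 13 of the 16 had the higher replicate mean in B, among them the complement gene *C1qc* with 0.048, 0.149, 0.571 and 0.923 FPKM. Of these 13 only *Fcer1g* was expressed, and the direction of the others, below 1 FPKM, rests on low values. *Cd68*, the largest part of the sum, was higher in A. Of all expressed genes 46.8% had the higher replicate mean in B. None of 11 endothelial markers was expressed, with sums of 1.73 to 1.96 FPKM in A and 2.97 to 6.94 FPKM in B. Of the 10 lymphocyte and blood markers in the tables, 0 were expressed. Among 7 pericyte markers, 4 of them expressed, *Anpep* and *Acta2* were called higher in B. Among 8 oligodendrocyte lineage markers, 6 of them expressed, *Olig1* and *Pdgfra* were called higher in B. The share of all expressed genes called higher in B was 4.78%. Of 10 neuron markers, 8 of them expressed, none was called in either direction, against 6.2%. The part of these cells in the differences given below was not tested, and in bulk RNA fewer cells of a type and less RNA per cell cannot be told apart.

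All members of the Ifitm family were called higher in B. They are interferon-induced transmembrane proteins, which restrict the entry of enveloped viruses. In rn6 the 3 genes lie together on chromosome 1, *Ifitm2* on the minus strand from 213750219 to 213751399, *Ifitm1* on the plus strand from 213765918 to 213767841 and *Ifitm3* on the minus strand from 213810712 to 213811821. *Ifitm2* was the highest member, with 103, 117, 311 and 352 FPKM. Its mean of 221 ± 157 FPKM ranked 431 among all names, and B exceeded A 3.02-fold (1.59 on the log2 scale). *Ifitm3* measured 83.4, 90.1, 228 and 248 FPKM, a mean of 162 ± 107 and a 2.75-fold excess in B (log2 1.45). Both genes were close between technical libraries and far apart between cultures.

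*Ifitm1* was lower, at 23.4, 25.8, 62.3 and 112 FPKM, with a mean of 55.9 ± 44.3. B exceeded A 3.54-fold (log2 1.78), and without B2 the log2 difference was 1.30. All 3 genes were called higher in B, and their summed FPKM was 209, 233, 601 and 712. None of the 6 neighbours before them, from *Bet1l* to *Nlrp6*, and none of the 3 after them, from *B4galnt4* to *Sigirr*, was called, although *Cox8b*, *Nlrp6*, *Pkp3* and *Sigirr* lay below 1 FPKM and could not be. *Psmd13*, a proteasome subunit upstream, measured 98.3, 92.6, 98.99 and 75.6 FPKM.

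The promoter sequences of *Ifitm2* and *Ifitm3* are shown because these neighbouring genes were both above 100 FPKM and both called. The sequences are from RefSeq, build GRCr8, which is not the build of the tables, and cover the stretch around each match. Capitals mark the core of the interferon-stimulated response element (ISRE), which is GAAA, any 2 bases and GAAA again, bound by IRF factors and their complex with STAT factors. It was searched on both strands from 250 bases before to 50 bases after the start. The *Ifitm2* stretch is chr1:205482349-205482411 and that of *Ifitm3* chr1:205541763-205541832, both on the minus strand.
*Ifitm2*: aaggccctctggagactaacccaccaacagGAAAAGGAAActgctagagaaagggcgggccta
*Ifitm3*: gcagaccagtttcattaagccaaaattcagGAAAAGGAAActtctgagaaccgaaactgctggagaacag
The match began 33 bases before the start of *Ifitm2* and 44 bases before that of *Ifitm3*. The longest run the stretches shared was caggaaaaggaaact, of 15 bases. The promoter of *Ifitm1* is not in the table of promoters.

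Across the promoters, 76 of the 95 members could be matched by symbol. The ISRE core occurred in 19 of them (25%), against 3.92% of all 33469 promoters, in 14 of 33 expressed members and in 5 of 43 members that were not expressed. TTCNNNGAA, the palindrome bound by STAT dimers, occurred in 11 (14.5%) against 8.87%. The members with this second motif were 6 of 33 expressed and 5 of 43 not expressed ones, and 3 members had both motifs. Neither occurred in any of 9 class II promoters. A match of these letters is a description of the window and does not show that a factor binds there.

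*Isg20* and *Oas1b* were the interferon-stimulated genes called higher in A. *Isg20*, an exonuclease for single-stranded RNA, is a plus-strand gene at positions 140602260 to 140608892 of chromosome 1. It measured 21.2, 20.9, 6.33 and 6.89 FPKM, a mean of 13.9 ± 10.2, and A exceeded B 3.19-fold (log2 difference of B minus A -1.54). *Oas1b*, of the 2'-5'-oligoadenylate synthetase family that senses double-stranded RNA, is a minus-strand gene at positions 41255762 to 41266430 of chromosome 12. It measured 4.93, 5.11, 1.14 and 1.98 FPKM, a mean of 3.29 ± 2.45, with A 3.21-fold above B (log2 -1.23). The libraries of A and B did not overlap for either gene.

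Their promoters also hold the ISRE core found in those of *Ifitm2* and *Ifitm3*, and are shown because their mRNA was lower in the culture with more Ifitm mRNA. The *Isg20* stretch is chr1:142239937-142240006 on the plus strand and the *Oas1b* stretch chr12:41395866-41395941 on the minus strand, both in GRCr8 with the match in capitals.
*Isg20*: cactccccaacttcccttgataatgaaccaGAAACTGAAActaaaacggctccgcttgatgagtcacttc
*Oas1b*: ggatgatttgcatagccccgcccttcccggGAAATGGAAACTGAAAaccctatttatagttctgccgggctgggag
The *Isg20* match began 92 bases before the start. In *Oas1b* 2 matches overlapped, at 59 and 53 bases before the start.

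With *RT1-A2*, a class I heavy chain, 4 of the 40 expressed members (10%) were called higher in B, against a background of 4.78% of expressed genes. The other 3 are the Ifitm genes, which lie together on chromosome 1, and *RT1-A2* lost its call without B2. Whether reads were shared among the Ifitm genes was not tested. With *RT1-CE16*, also a class I name, 3 members (7.5%) were called higher in A, against 1.42%. In either direction 7 members (17.5%) were called, against 6.2%. The replicate mean was higher in B for 27 of 40 members (67.5%), against 46.8%. Every library of B lay above every library of A for 18 members (45%) against 28.1%, and the reverse held for 8 (20%) against 32%. The median log2 difference of B minus A was 0.26 for members and -0.03 for all expressed genes, and without B2 the members' median was 0.11.

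**Figure D2:**
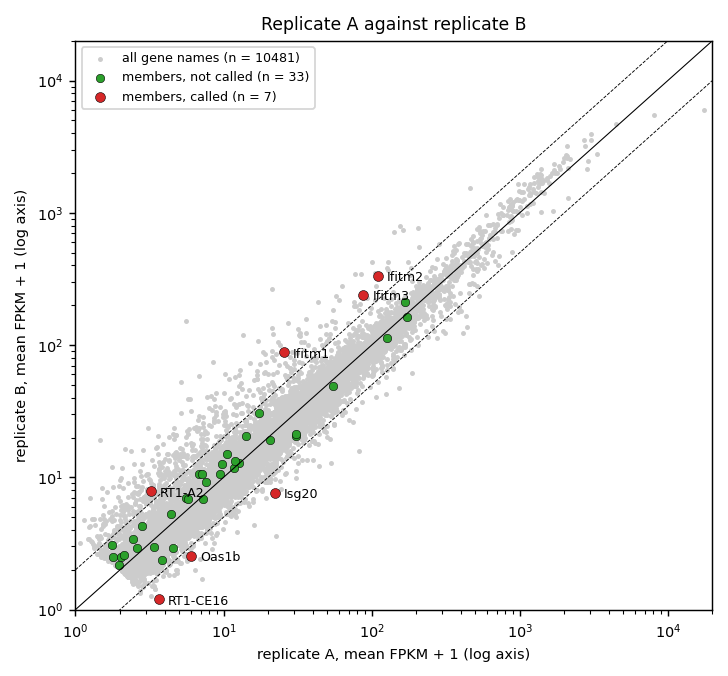
Mean FPKM + 1 of replicate A (horizontal, log axis) against replicate B (vertical, log axis) for all 10481 expressed gene names (grey), with 33 members not called (green) and 7 called (red). The solid line marks equal values and the dashed lines a difference of 1 on the log2 scale; *Ifitm1*, *Ifitm2*, *Ifitm3* and *RT1-A2* lie above, *Isg20*, *Oas1b* and *RT1-CE16* below.

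The remaining interferon-stimulated members were not called, although some were higher in A or B in both libraries. *Ifi27*, a small mitochondrial protein strongly induced by type I interferon elsewhere, was high in every library at 159, 184, 148 and 178 FPKM. Its mean of 167 ± 5.89 FPKM ranked 590, and the replicates overlapped (log2 -0.07). *Mx2*, a dynamin-like GTPase that blocks viruses, measured 30.4, 29.2, 22.6 and 17.8 FPKM, higher in A without overlap but short of a call (log2 -0.54). Its relative *Mx1* had a mean of 0.079 FPKM and no library above 0.131 FPKM.

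*Isg15*, the ubiquitin-like modifier, measured 7.94, 8.92, 9.54 and 9.56 FPKM, slightly higher in both libraries of B (log2 0.16). *Ifi30*, a lysosomal thiol reductase, was higher in A at 28.8, 30.8, 18.4 and 20.6 FPKM (log2 -0.59). *Ifi35* was higher in B at 12.4, 14.0, 15.7 and 23.4 FPKM (log2 0.53), most of it in B2. *Ifi44* measured 4.66, 4.53, 5.36 and 6.67 FPKM. *Ifi27l2b* was low and higher in A, at 2.42, 3.31, 1.03 and 1.75 FPKM. These differences fell short of a call.

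The Ifit genes, which bind foreign RNA and are among the most inducible interferon targets, were low. All 3 lay below 1 FPKM, too low to be called, with means from 0.107 FPKM for *Ifit3* to 0.466 FPKM for *Ifit2*. Both libraries of B lay above those of A for *Ifit2*, at 0.217, 0.252, 0.455 and 0.938 FPKM, and for *Ifit1*, at 0.013, 0.052, 0.148 and 0.461 FPKM. Of 12 Oas names 3 were expressed, *Oas1b* being the highest, beside *Oas1i* (1.27 FPKM as the sum of 2 rows, each below 1 FPKM) and *Oasl2* (1.07 FPKM). *Isg20l2*, a ribosomal RNA-processing nuclease, was level at 11.1, 10.6, 11.9 and 9.68 FPKM.

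The factors that carry the signal were present at moderate levels. *Stat2* measured 11.3, 10.5, 11.2 and 13.6 FPKM with overlapping replicates (mean 11.6 ± 1.04). *Irf9*, which joins STAT factors on the response element, measured 22.7, 16.7, 19.0 and 17.3 FPKM (mean 18.9 ± 1.08). Neither gene was called.

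Of 9 IRF factors 5 were expressed. *Irf3*, the factor that acts downstream of nucleic acid sensors, was the highest at 156, 95.6, 146 and 77.1 FPKM. Its replicate means of 126 and 111 FPKM were close (mean 119 ± 10.2, log2 -0.17), while the technical libraries of each culture were apart, A1 exceeding A2 1.64-fold and B1 exceeding B2 1.89-fold. A gap of at least 1.5-fold between library 1 and library 2 in the same direction in both cultures, a criterion set after the values were seen, held for 1 of 40 members and for 0.859% of all expressed genes. *Irf3* overlaps *Bcl2l12* on the opposite strand by 865 bases. *Bcl2l12* measured 8.95, 9.48, 15.5 and 13.5 FPKM, and whether the counting used strand is not given in the sources used here.

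*Irf2*, which can repress interferon targets, was the steadiest IRF at 11.8, 11.6, 11.2 and 12.4 FPKM (log2 0.01). *Irf1*, an activator of class I genes, measured 6.2, 5.49, 8.19 and 11.0 FPKM (log2 0.63), higher in every library of B but not called. *Irf7*, the amplifier of type I interferon, had 0.793, 0.736, 1.6 and 2.61 FPKM, and its position is overlapped by long rows of abundant genes such as *Rplp2*. It was not called, but was called higher in B without B1 or with a pseudocount of 0.1. *Irf4*, *Irf5* and *Irf8*, which act mainly in immune cells, lay below 1 FPKM, with *Irf5* the highest of them at 0.428 FPKM.

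The IRF2-binding proteins, which act as corepressors, differed from each other. *Irf2bp1* measured 52.3, 55.6, 47.4 and 49.0 FPKM (log2 -0.16). *Irf2bpl* measured 16.6, 15.8, 27.5 and 31.4 FPKM, higher in both libraries of B (log2 0.82) but short of a call.

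The promoters of *Irf1* and *Irf9* hold the motif TTCNNNGAA, in capitals here, and are shown as examples of the second motif. The *Irf1* stretch is chr10:38417763-38417831 and the *Irf9* stretch chr15:33065707-33065775 in GRCr8, both on the plus strand, with the match beginning 142 and 99 bases before the start.
*Irf1*: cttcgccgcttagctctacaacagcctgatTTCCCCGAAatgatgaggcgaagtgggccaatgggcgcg
*Irf9*: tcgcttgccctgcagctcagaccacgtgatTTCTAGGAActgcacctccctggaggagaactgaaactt
The promoters of *Isg15* and *Mx2* are not in the table.

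Upstream of these factors, the ligands in the tables were listed at or near 0 and receptors were present. Of 12 interferon genes on the list, 6 were in the tables and 0 were expressed; 5 of them, *Ifna1*, *Ifna2*, *Ifna4*, *Ifnb1* and *Ifng*, were listed at 0 in every library and *Ifnk* had a mean of 0.052 FPKM. A 0 in these tables need not mean a low level, since *Slc25a22* was listed at 25.5, 17.5, 21.03 and 0 FPKM. The type I receptor chain *Ifnar1* had 21.5 ± 3.20 FPKM. Of the type II receptor chains *Ifngr1* had 28.9 ± 0.047 FPKM, and *Ifngr2* had 13.6 ± 2.37 FPKM with its highest value in B2 (18.5 FPKM, against 12.1 FPKM in B1). The type III receptor is a pair, of which *Il10rb* had 14.6 FPKM and *Ifnlr1*, its ligand-specific chain, 0.238 FPKM.

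Of 15 JAK-STAT partners and inhibitors 14 were expressed, and 2 were called, both higher in B, against the background of 4.78% of expressed genes. *Stat6*, the factor of interleukin-4 signalling, measured 2.50, 1.53, 6.47 and 12.4 FPKM. *Socs3*, a feedback inhibitor of cytokine receptors, measured 10.2, 8.58, 18.3 and 29.7 FPKM, and without B2 its log2 difference fell from 1.27 to 0.89 and its call was lost. The interferon feedback inhibitor *Socs1* was even, at 14.5, 14.5, 14.6 and 14.8 FPKM, as was the kinase *Jak1* at 25.9, 25.6, 27.0 and 25.7 FPKM. Of the nucleic acid sensing genes 12 were listed in the tables. Among them 7 were expressed and 0 called, with the kinase *Tbk1* the highest at 14.1 FPKM.

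The tables listed 27 further interferon-stimulated genes, of which 17 were expressed and 3 were called, all higher in B, of which *Cxcl10* alone was called without B2. *Cxcl10*, a chemokine for activated T cells, measured 0.286, 0.239, 3.33 and 3.18 FPKM. *Gbp2*, a guanylate-binding protein, measured 2.02, 2.01, 4.98 and 8.98 FPKM, and *Lgals3bp*, a secreted glycoprotein, 5.57, 5.93, 8.39 and 19.6 FPKM. Without B2 the log2 differences of these 2 genes were 0.99 and 0.48. *Bst2*, also called tetherin, shows how far B2 could stand from B1, at 7.85 FPKM in B1 and 31.6 FPKM in B2 against 10.2 and 11.7 FPKM in A. Over all the lists 58 of 88 genes in the tables were expressed, 5 were called higher in B, against 4.78% of expressed genes, and 0 higher in A, against 1.42%. Without B2, 2 of 56 expressed genes were called higher in B, *Stat6* and *Cxcl10*, against 3.67% of all.

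**Figure D3:**
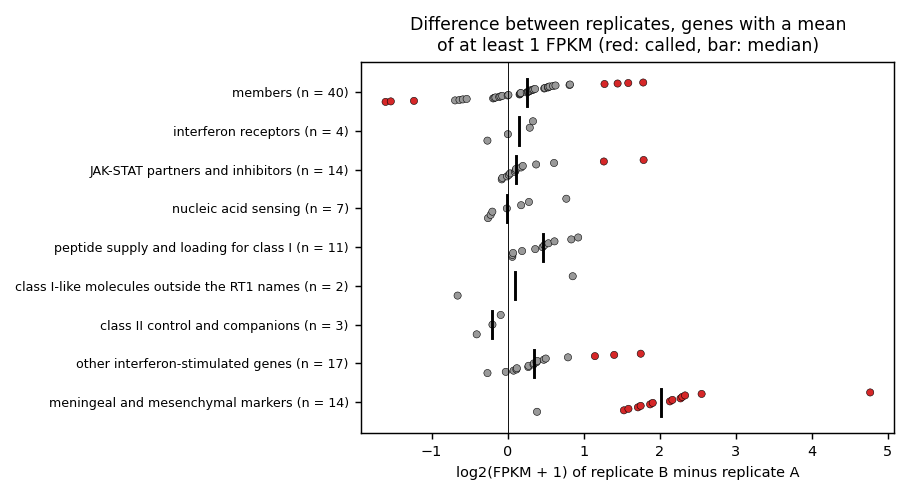
Difference of replicate B minus replicate A on the log2(FPKM + 1) scale for the expressed genes of the members and of each list; each point is a gene, red points are called, the black bar is the median and the numbers give the genes plotted. The members' median is 0.26, that of peptide supply and loading 0.46 and that of the meningeal and mesenchymal markers 2.02.

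By the listed FPKM the class I light chain was far more abundant than any heavy chain. *B2m*, a plus-strand gene at positions 114087287 to 114093311 of chromosome 3, measured 156, 175, 166 and 254 FPKM. Its mean was 188 ± 31.3 FPKM and ranked 517, and the replicates overlapped (log2 0.34), the excess of B resting on B2. The 39 heavy chain names together summed to 38.8, 38.2, 35.3 and 53.9 FPKM, a mean of 41.6 ± 4.31. The sum is used because reads of near-identical RT1 genes can be divided among copies. Without B2 the mean was 36.9 FPKM, and B1 lay below both libraries of A.

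On this length-scaled measure the ratio of light to heavy chain mRNA was 4.02, 4.60, 4.71 and 4.71, a mean of 4.51 ± 0.283. Light and heavy chain mRNA were thus both highest in B2, and their ratio in B2 was that of B1. The ratio does not reach protein, which was not measured. It also depends on how heavy chain reads aligned and were counted among RT1 names, which was not tested. Heavy chain reads that failed to align would raise it.

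Of the 39 heavy chain names 12 were expressed, 3 were at 0 everywhere and none reached 10 FPKM. The 14 RT1-CE names supplied 35.7% of the sum, the 10 RT1-M names 23.2%, the 3 RT1-A names 16.3%, the 3 RT1-N names 15.6%, the 2 RT1-S names 5.6% and the 5 RT1-T names 3.08%. The shares differed between cultures: the RT1-M names supplied 28.9% in A and 18.2% in B, and the RT1-A names 12.3% in A and 19.7% in B, so that their order was turned in B. The RT1-N names, with 13.9% in A and 17.2% in B, lay above the RT1-A names in A and below them in B, where the order rested on B2: in B1 the sums were 6.88 FPKM for RT1-N and 6.58 FPKM for RT1-A. *RT1-CE5* was the highest, at 6.30, 7.03, 7.03 and 9.54 FPKM (mean 7.48 ± 1.14). *RT1-M3-1*, a nonclassical heavy chain of the family that presents N-formylated peptides, was next at 5.90, 6.64, 5.04 and 6.57 FPKM (mean 6.04 ± 0.328). For both, the replicates overlapped, and the libraries of *RT1-CE5* also overlapped those of *RT1-M3-1*.

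*RT1-A2*, of the classical RT1-A region, is a plus-strand gene at positions 5375011 to 5378536 of chromosome 20. It measured 2.12, 2.36, 4.99 and 8.71 FPKM, a mean of 4.55 ± 3.26, with B 3.05-fold above A (log2 1.28). Without B2 the log2 difference was 0.89 and the call was lost. Its neighbour in name *RT1-A1* showed no such gap, at 2.31, 2.42, 1.57 and 2.32 FPKM.

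*RT1-CE16*, a minus-strand name at positions 3776445 to 3793985 of chromosome 20, measured 2.71, 2.58, 0.396 and 0 FPKM (mean 1.42 ± 1.73, log2 -1.61). Its whole span of 17541 bases lies within the row of *RT1-A3* on the same strand, so reads in common could go to either name. *RT1-A3* had a mean of 0.066 FPKM. *RT1-M6-2* had its lowest value in B1, at 3.62, 3.48, 0.824 and 3.04 FPKM, but B2 stood near the libraries of A and the gene was not called. Without B2 it was called higher in A.

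The Sprague Dawley strain is outbred, and the reference genome is of the Brown Norway strain. Heavy chain alleles can differ between them, and how many reads failed to align for this reason was not tested. Among the names, *RT1-CE1*, *RT1-CE12*, *RT1-CE14* and *RT1-CE15* had rows longer than 100 kb that run across other genes, among them *Ddx39b* under *RT1-CE14*. The row of *RT1-CE14* also overlaps those of *RT1-CE5*, *RT1-CE4*, *RT1-CE3*, *RT1-CE1* and *RT1-CE12* on the same strand. How reads in common were counted is not given in the sources used here. The single values of all these names are therefore uncertain, and the RT1-CE share and the heavy chain sum may be affected too.

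**Figure D4:**
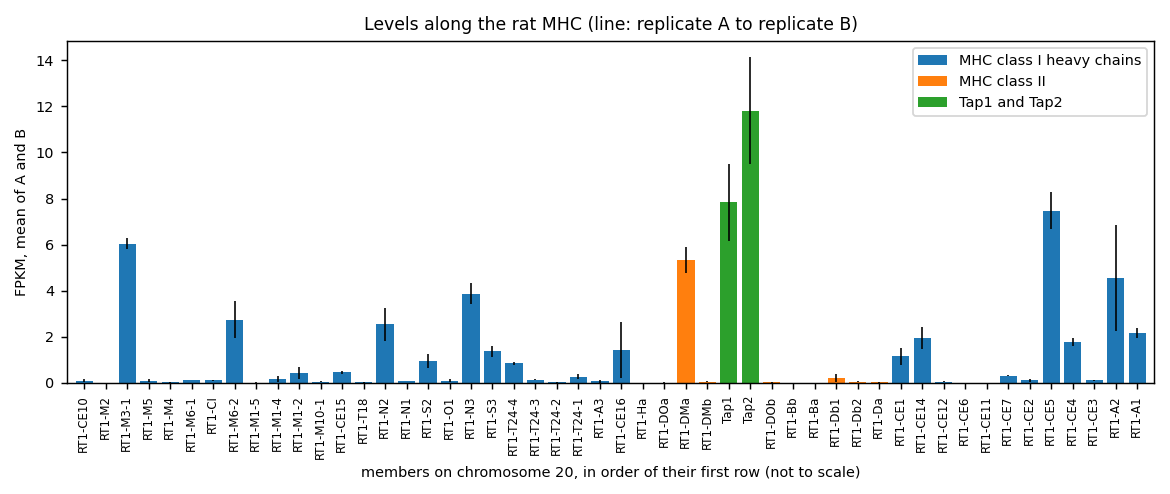
Mean FPKM of the members on chromosome 20 in the order of their first row along the chromosome (not to scale), with class I heavy chains in blue, class II in orange and the Tap transporters in green; the line on each bar runs from one replicate mean to the other. *Tap2* at 11.8 FPKM, the sum of its 2 rows, and *Tap1* at 7.84 FPKM are the highest, *RT1-DMa* is the tallest class II bar and most bars lie below 1 FPKM.

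The transporters that feed class I were both expressed and higher in B. *Tap1* measured 5.85, 6.48, 8.46 and 10.6 FPKM (mean 7.84 ± 2.36, log2 0.55). *Tap2* measured 10.1, 8.92, 14.0 and 14.3 FPKM (mean 11.8 ± 3.29, log2 0.53). The libraries of A and B did not overlap for either gene, and neither difference reached a call.

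Around them, 11 of 12 genes for peptide supply and loading were in the tables, all 11 were expressed and all 11 had a higher replicate mean in B, against 46.8% of all expressed genes, with none called. The immunoproteasome subunit *Psmb9* measured 12.8, 13.7, 20.8 and 31.3 FPKM (log2 0.93). Its partner *Psmb8* measured 2.94, 2.999, 3.17 and 9.003 FPKM, so that its excess came from B2. Tapasin, encoded by *Tapbp*, which bridges Tap to the heavy chain, measured 15.6, 14.8, 20.9 and 26.7 FPKM (log2 0.62). The general chaperone *Calr* was level at 650, 704, 737 and 685 FPKM (log2 0.07). Of 6 class I-like genes outside the RT1 names 2 were expressed and 0 called, the highest being *Fcgrt*, which pairs with beta-2-microglobulin to carry antibodies, at 55.3, 56.6, 91.02 and 113 FPKM.

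The promoters of *B2m*, *Tap1* and *Tap2* are shown because these genes act in 1 pathway and each holds an ISRE core match. Capitals mark the match, read on the opposite strand in *Tap1*. The *B2m* stretch is chr3:129549150-129549219 on the plus strand, the *Tap1* stretch chr20:4668625-4668694 and the *Tap2* stretch chr20:4652298-4652367, both on the minus strand, in GRCr8.
*B2m*: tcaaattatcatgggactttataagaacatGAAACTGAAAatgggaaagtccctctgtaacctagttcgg
*Tap1*: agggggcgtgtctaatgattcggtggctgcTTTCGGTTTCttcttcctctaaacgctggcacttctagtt
*Tap2*: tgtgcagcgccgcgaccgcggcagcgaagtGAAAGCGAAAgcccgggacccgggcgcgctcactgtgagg
The matches began 150, 121 and 41 bases before the start. Among heavy chains 3 of 32 promoters held this motif, and those of *RT1-A2* and *RT1-CE16* held neither motif.

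Class II genes were almost silent, with 1 exception. Of 10 class II names *RT1-DMa* was the only one expressed, at 4.93, 4.64, 4.67 and 7.11 FPKM (mean 5.34 ± 0.778). It encodes a chain of the editor that loads class II peptides, and its partner *RT1-DMb* had a mean of 0.057 FPKM. The highest of the other 9 was *RT1-Db1* at 0.222 FPKM. *Ciita*, the master regulator of class II, had 0.0093 FPKM and *Cd74*, the invariant chain, 0.345 FPKM, while the general promoter factors *Rfx5*, *Rfxap* and *Rfxank* had 22.6, 50.3 and 25.5 FPKM.

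Of the members, 6 (6.32%) had more than 1 row in the tables, against 1.99% of all names. They were *Oas1d*, *Oas1i*, *RT1-DMa*, *RT1-DMb*, *RT1-Ha* and *Tap2*, and their rows were summed. On chromosome 20 the second copies lay on the opposite strand: *Tap2* from 3995544 to 4009587 on the plus strand and from 5198165 to 5212207 on the minus strand, and *RT1-DMa* from 3935512 to 3938915 and from 5240975 to 5244378. The copies of *Oas1i* on chromosome 12, from 41155489 to 41167501 and from 42343123 to 42355135, had the same strand.

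The copies of *Tap2*, *RT1-DMa* and *Oas1i* had nearly equal values. The rows of *Tap2* measured 5.12 and 4.94 FPKM in A1 and 7.21 and 7.06 FPKM in B2, and differed by 0.956% to 3.52% over the libraries. Those of *RT1-DMa* differed by 0.084% to 3.01% and those of *Oas1i* by 0.964% to 3.70%. The rows of *Oas1d* were equal, those of *RT1-Ha* were at 0, and those of *RT1-DMb*, which were at most 0.102 FPKM, differed by 9.31% in B1 and were above 0 in A2 for 1 row only. For each of the 6 names the GRCr8 table lists 1 gene. Whether reads were split between the copies or counted at both cannot be told from the tables, so the summed level of these names is uncertain. A single row of *Tap2*, with means of 5.97 and 5.85 FPKM, would rank below *Tap1*, *RT1-CE5* and *RT1-M3-1*, and with the highest row of each name 39 members in place of 40 were expressed, *Oas1i* falling below 1 FPKM.

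**Figure D5:**
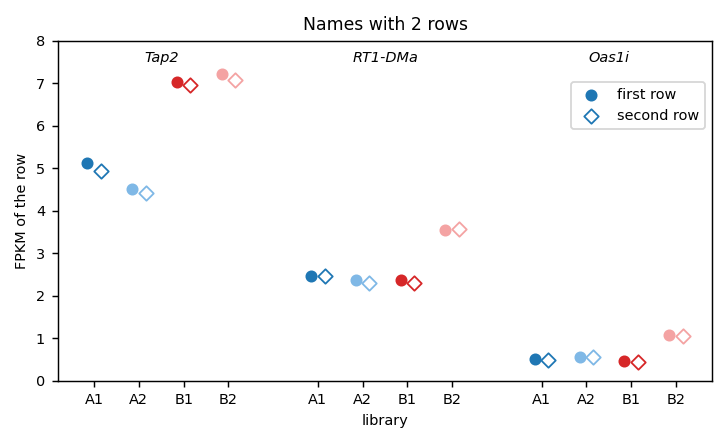
FPKM of the first row (filled) and second row (open) of *Tap2*, *RT1-DMa* and *Oas1i* in libraries A1, A2, B1 and B2. The rows of a name lie almost on each other in every library, by at most 3.70%, while the libraries differ.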

How the data were processed

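PolyA mRNA-seq of 4 libraries (replicates A and B, 2 technical libraries each, grouped by the sample labels) was used, and Start-seq was not analysed here. Per the submitters' processing notes cutadapt, HISAT, STAR and StringTie were used with rn6. The deposited tables hold FPKM, TPM and coverage per gene row, made by the authors. The FPKM values deposited by the authors are scaled for transcript length and depth. The deposited TPM values of a library add up to 1e+06. Coverage, as deposited, is read depth over a row, not scaled for library size. In the methods the authors credit FPKM to Rsubread and DESeq2, while the layout is that of StringTie; tool versions, and the handling of reads that map to several places, are not given in the sources used here.

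The FPKM of all rows of a name were added, and the sums were averaged over technical libraries and then over A and B. Depth was compared through the median coverage per FPKM, since no read counts are used here, and no counting interval is given. Calls used a pseudocount of 1, a minimum mean of 1 FPKM, a minimum absolute log2 difference of 1 and no overlap of libraries. The counting of calls was tested on simulated data. Members with a mean of at least 5 FPKM, called members, the highest of each class and names with several rows are named, and the pathway and marker lists are fixed lists of symbols. The members and lists were chosen with earlier results of these data known. Alternatives were other thresholds, a pseudocount of 0.1, TPM, median-of-ratios scaling, left-out libraries or replicates, and other treatments of rows. Promoters (RefSeq, GRCr8) were matched by symbol. Python 3.11.15, pandas 2.3.3, numpy 2.4.6 and matplotlib 3.10.9 were used. Some members are counted but not reported here by name.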

Additional observations from a re-analysis of the deposited data

Results flagged for a closer look

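Among 43 values examined over the 4 libraries, 7 had a library whose gap to the nearest other library, divided by the whole range, exceeded Dixon's critical value. Chance gives this in about 1 of 20 groups, and the libraries are technical pairs of 2 cultures, so they are not 4 independent samples. Library B2 stood high in 4 members, *Oas1i* (2.12 FPKM), *RT1-CE1* (2.23 FPKM), *RT1-DMa* (7.11 FPKM) and *RT1-S3* (2.01 FPKM). Library B1 stood low for *RT1-A1* (1.57 FPKM). The ratio of *B2m* to summed class I heavy chain FPKM stood low in A1 (4.02). B2 was also the library with the lowest coverage per FPKM (6.83), and the part of its depth in these values was not tested.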

How the results depend on the processing

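The number of expressed members was 25 at a threshold of 5 FPKM and 18 at 10 FPKM, in place of 40, and 37 to 40 with a replicate or library B2 left out. Members at 0 everywhere numbered 5 to 11 with a replicate left out, the 11 being those without replicate A, and the cause was not tested. Called members numbered 14 at a log2 difference of 0.58 (8 higher in B, 6 higher in A, against 9.51% and 6.95% of expressed genes) and 4 where the mean had to reach 10 FPKM (1 higher in A, against 1.3%; in either direction 4.99% of genes), and the lost calls were those of *RT1-A2*, *Oas1b* and *RT1-CE16*, which lie below that level. With each library left out in turn 7 to 8 members were called, 3 to 5 higher in B and 3 to 4 higher in A (3.67% to 6.35% and 1.28% to 2.11% of all expressed genes). *RT1-A2* lost its call (0.89) and *RT1-M6-2* gained one without B2, and *Irf7* gained one without B1 and with a pseudocount of 0.1. The median log2 difference of the members was 0.11 to 0.39 with a library left out and 0.09 for members with a mean of at least 10 FPKM, in place of 0.26. In TPM the class I heavy chain sum was 69.8 and *B2m* 315, on another scale by construction, with the same ratio of 4.51. With a replicate or B2 left out the heavy chain sum was 36.9 to 44.6 FPKM, *B2m* 165.9 to 210 FPKM and the ratio 4.31 to 4.71. The differences of the 7 called members and the members' median kept their direction under the alternatives run for them, while 6 members that were not called turned without B2, a comparison chosen after seeing the data, as were the list counts without B2. Of the single-gene differences 66 kept their call and 4 lost it. Why the values without B2 differ was not tested. No paired analysis was possible because there is 1 condition and the replicates are themselves what is compared. With 2 cultures, an SD has 1 degree of freedom, and members below 1 FPKM in B2 rest on few reads.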
